A study of Mus musculus with 91 samples.

Results

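The auxiliary subunits of voltage-gated calcium channels were examined in single layer 5 (L5) pyramidal neurons (Pyrs) of mouse primary visual cortex (V1). They were taken by gene symbol as 7 of the 34745 rows of the table, the β subunits Cacnb1, Cacnb2, Cacnb3 and Cacnb4 and the α2δ subunits Cacna2d1, Cacna2d2 and Cacna2d3. All 7 had a count in at least 1 neuron, and 6 passed the filter on low counts (at least 5 counts in at least 10 neurons). Cacna2d2 did not pass it.

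The study collected 91 neurons by Patch-seq, in which a neuron is recorded electrically and its soma and nucleus are then drawn into the same pipette for RNA sequencing. It compared the L5 Pyr type that receives thalamic input from the lateral posterior nucleus (Pyr←LP, n = 47) with the type that receives cortical input from the ventrolateral orbital cortex (Pyr←ORBvl, n = 44). All neurons came from mice labelled wild type (WT), with no treatment named, and the study used mice aged between 2 and 3 months. A classifier assigned each neuron to a type from the slope of its hyperpolarization-activated current (Ih), so the groups are defined by an electrical property and not by inputs measured in these neurons.

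A high-voltage-activated calcium channel is built around a pore-forming α1 subunit, which opens on depolarization. The cytoplasmic β subunit binds the loop between the first and second domains of the α1 subunit, helps the channel to reach the plasma membrane and sets how it opens and inactivates. The α2δ subunit sits mainly outside the membrane, promotes trafficking of channels to the surface and to presynaptic terminals, and is the target of gabapentin in the case of α2δ-1 and α2δ-2. T-type channels form currents without needing either partner.

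Total counts per neuron lay between 2410 and 1948982 (median 423999), and 72 of the 91 neurons had at least 100000 counts. Pan-neuronal and excitatory markers had counts in every neuron, with medians of the summed level of 5512 and 788 counts per 1000000 counts (CPM) in Pyr←LP neurons and 5460.1 and 1137 CPM in Pyr←ORBvl neurons. Oligodendrocyte markers had a count in 46 of 47 Pyr←LP and 44 of 44 Pyr←ORBvl neurons and microglial markers in 45 and 44. Their summed levels had medians of 1304 and 2135 CPM for oligodendrocyte and 778 and 974.8 CPM for microglial markers, the former above and the latter below those of the excitatory markers. GABAergic markers had a count in 21 and 24 neurons. None of the genes of these 3 lists that could be tested was called between the types, and the part of this other RNA in the values below was not tested. Pyr←ORBvl neurons 5 and 11 had nearly the same profile (Pearson r = 0.993 on log2 values over genes, against at most 0.711 for any other pair). Their counts differed by more than counting error (chi-square of 3.36 per degree of freedom), which does not show that they are separate cells, because reads of amplified cDNA are not independent molecules. Both were kept as labelled, and values without 1 of them are given where they matter. The neurons carry 17 title prefixes, of which 14 hold both types. The labels do not say whether a prefix stands for a mouse or a day, and the study recorded more neurons than mice, so neurons share mice and p-values over neurons measure only the spread between neurons.

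Most members were found in a minority of the neurons. A count of at least 1 was seen for Cacnb4 in 56.0% of the 91 neurons, for Cacna2d3 in 47.3% and for Cacna2d1 in 46.2%. Cacnb3 followed with 35.2%, Cacnb1 with 30.8%, Cacnb2 with 26.4% and Cacna2d2 with 5.49%. Since a single neuron yields little RNA and the kit carries no molecular identifiers, a neuron without a count is one in which the transcript was not detected at this depth. The number of members detected per neuron was 2.43 ± 1.51 (SD, n = 47) in Pyr←LP neurons and 2.52 ± 1.61 (SD, n = 44) in Pyr←ORBvl neurons, with a maximum of 6 of 7. Over the 91 neurons this number went with the number of detected genes (Spearman's rho = 0.50, a description over neurons that share prefixes) and hardly with total counts (rho = 0.04).

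**Figure D1:**
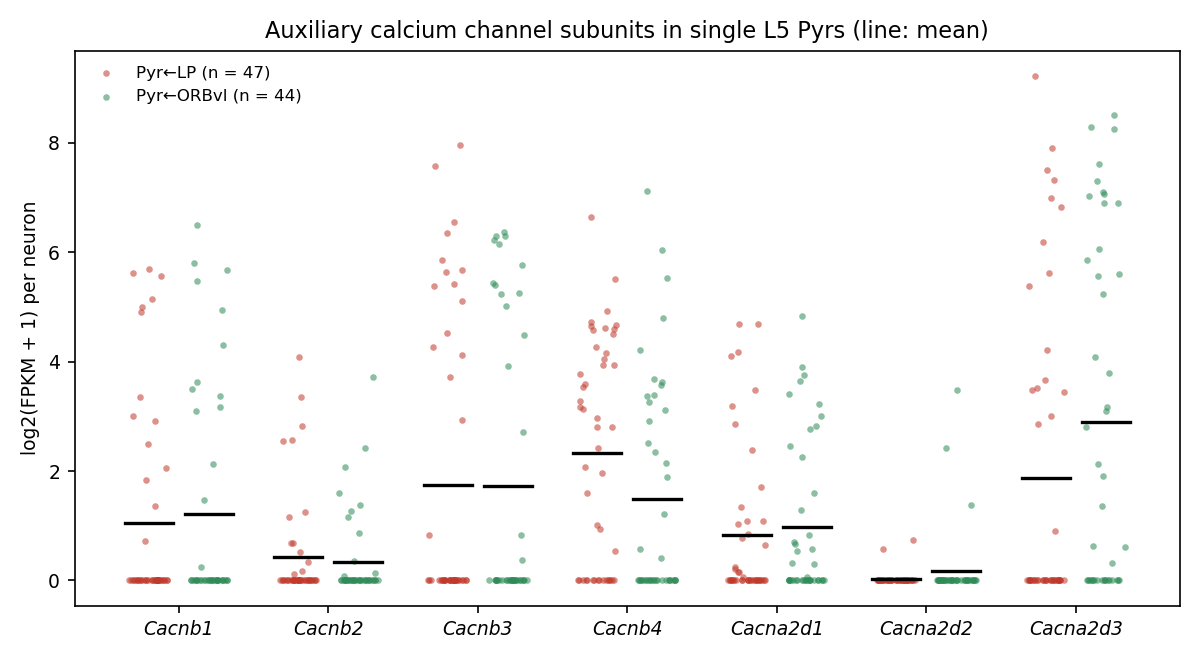
Deposited FPKM of each auxiliary subunit in every neuron, as log2(FPKM + 1), with red points for Pyr←LP (n = 47), green points for Pyr←ORBvl (n = 44) and the mean as a black line. The types share most of the range of each member other than Cacna2d2, in each type many neurons sit at 0, and the highest values of Cacnb3 (Pyr←LP) and Cacnb1 (Pyr←ORBvl) lie above those of the other type.

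Cacnb1 (chromosome 11 of GRCm38, 98001508 to 98023034) encodes β1, the β subunit of the skeletal muscle channel, which is also made in brain. In Pyr←LP neurons its deposited FPKM ranged from 0 to 50.7 (median 0), with a count in 14 of 47 neurons. In Pyr←ORBvl neurons it ranged from 0 to 89.1 (median 0), with a count in 14 of 44. The types overlapped up to the highest Pyr←LP value, and 2 Pyr←ORBvl neurons lay above it, at 89.1 (neuron 31, with 462 counts) and 54.6 (neuron 34). The edgeR log2 fold change (positive where Pyr←ORBvl is higher) was 0.65 (SE 0.89, 95% interval −1.10 to 2.40, adjusted p = 0.968). It was −0.23 with DESeq2 (adjusted p = 1.00) and 0.055 without the prefix of neuron 31.

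Cacnb2 (chromosome 2, 14603861 to 14988811) encodes β2, the main β subunit of cardiac L-type channels. Its FPKM ranged from 0 to 15.9 (median 0) in Pyr←LP neurons and from 0 to 12.2 (median 0) in Pyr←ORBvl neurons, with a count in 13 and 11 neurons. The highest FPKM, in Pyr←LP neuron 15, was a single count in a library of 2545 counts. Apart from Cacna2d2 it was the lowest member per length, and its fitted log2 fold change was 0.05 (SE 0.86, 95% interval −1.65 to 1.74, adjusted p = 0.997). The sign of this value was not fixed, and it lay between −1.04 and 0.58 when each prefix was left out in turn.

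Cacnb3 (chromosome 15, 98628436 to 98644536) encodes β3, a β subunit common in brain and often paired with N-type channels. In Pyr←LP neurons its FPKM ranged from 0 to 248 (median 0), with a count in 16 of 47. In Pyr←ORBvl neurons it ranged from 0 to 81.4 (median 0), with a count in 16 of 44. The 3 highest neurons were all Pyr←LP neurons, of which 2 carried the same prefix, and the remaining values of the types overlapped. The fitted log2 fold change was −0.33 (SE 0.87, 95% interval −2.04 to 1.38, adjusted p = 0.993).

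Cacnb4 (chromosome 2, 52428320 to 52676609) encodes β4, the β subunit whose loss causes ataxia and seizures in the lethargic mouse. It was the only member with a median above 0 in Pyr←LP neurons, where its FPKM ranged from 0 to 98.8 (median 5.94). In Pyr←ORBvl neurons it ranged from 0 to 138 (median 0). Both types spanned nearly the same range, and the highest neuron was a Pyr←ORBvl neuron, which alone held 35.7% of the summed CPM of its type. The fitted log2 fold change was −0.48 (SE 0.74, 95% interval −1.93 to 0.98, adjusted p = 0.979).

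A count of Cacnb4 was seen in 31 of 47 Pyr←LP neurons (66.0%, Wilson 95% interval 51.7% to 77.8%) and in 20 of 44 Pyr←ORBvl neurons (45.5%, 31.7% to 59.9%). The difference was not past the threshold in Fisher's exact test (two-sided p = 0.0592, adjusted p = 0.598). With neurons of at least 100000 counts thinned to that depth, Cacnb4 was detected in 25 of 38 Pyr←LP and 11 of 34 Pyr←ORBvl neurons (Fisher's exact p = 0.00893, adjusted p = 0.405), against 25 and 13 before thinning. Within the 14 prefixes that hold both types, the mean was higher in Pyr←LP neurons in 9 and in Pyr←ORBvl neurons in 5. Neither Pyr←ORBvl neuron 5 nor 11 had a count of Cacnb4.

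The counts of Cacnb4 carry an uncertainty of their own. In the GENCODE M21 annotation, 1433 bases of its exons overlap A430018G15Rik, a noncoding transcript on the opposite strand, and the kit does not mark strand, so reads from this stretch cannot be told apart. A430018G15Rik was detected in 40 neurons, of which 38 also held Cacnb4, and these 38 were 74.5% of the Cacnb4 neurons. By type, A430018G15Rik was detected in 25 of 47 Pyr←LP and 15 of 44 Pyr←ORBvl neurons. Its summed counts were 1026 in Pyr←LP neurons, of which 378 were in 1 neuron, and 206 in Pyr←ORBvl neurons. The part of A430018G15Rik in the difference of Cacnb4 between the types was not tested. It was the gene whose level went most closely with that of Cacnb4 over the 91 neurons (rho = 0.76). Among neurons without a count of A430018G15Rik, Cacnb4 was detected in 8 of 22 Pyr←LP and 5 of 29 Pyr←ORBvl neurons.

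Cacna2d1 (chromosome 5, 15934264 to 16374511) encodes α2δ-1, a gabapentin target found widely at excitatory synapses. In Pyr←LP neurons its FPKM ranged from 0 to 24.7 (median 0), with a count in 21 of 47. In Pyr←ORBvl neurons it ranged from 0 to 27.6 (median 0), with a count in 21 of 44. Many of these were traces, since at least 5 counts were seen in only 11 Pyr←LP and 14 Pyr←ORBvl neurons. The fitted log2 fold change was 0.39 (SE 0.86, 95% interval −1.30 to 2.09, adjusted p = 0.993), and it turned to −0.11 without 1 of the prefixes.

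Cacna2d2 (chromosome 9, 107399733 to 107529346) encodes α2δ-2, which is best known from cerebellar Purkinje cells. It was seen in only 5 of the 91 neurons. Pyr←LP neurons 20 and 38 had 1 and 5 counts, and Pyr←ORBvl neurons 8, 14 and 23 had 34, 1 and 115. Pyr←ORBvl neuron 23 held 63.1% of the summed CPM of its type. Gad1, which encodes a GABA-synthesizing enzyme, had a count in 3 of these 5 neurons (3 counts in Pyr←LP neuron 20, 79 in Pyr←ORBvl neuron 8 and 20 in Pyr←ORBvl neuron 14) and in 20 of all 91. Pvalb, a marker of a class of GABAergic neurons, had 24 counts in Pyr←LP neuron 20 and 32 in Pyr←ORBvl neuron 8. Gad2, Slc32a1 and Lhx6 were at 0 in all 5, and the exclusion rule of the study, as applied here, kept all 5. The part of such RNA in these values was not tested, and Pyr←LP neuron 38 and Pyr←ORBvl neuron 23 had 0 counts of Gad1. The excitatory marker Slc17a7 had 23 and 408 counts in Pyr←LP neurons 20 and 38. It had 4, 0 and 66 counts in Pyr←ORBvl neurons 8, 14 and 23. Cacnb4 was detected in all 5.

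Cacna2d3 (chromosome 14, 28904943 to 29722775) encodes α2δ-3, which lacks high-affinity binding of gabapentin. In Pyr←LP neurons its FPKM ranged from 0 to 595 (median 0). In Pyr←ORBvl neurons it ranged from 0 to 363 (median 2.16). The highest neuron was Pyr←LP neuron 22, which held 36.1% of the summed CPM of its type and lay above every Pyr←ORBvl value, and below it the types overlapped. The fitted log2 fold change was 0.95 (SE 0.76, 95% interval −0.55 to 2.45, adjusted p = 0.863). It was 0.88 with 1 of the near-identical Pyr←ORBvl neurons 5 and 11 left out, which held 501 and 521 counts of Cacna2d3.

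A count of Cacna2d3 was seen in 17 of 47 Pyr←LP neurons (36.2%, Wilson 95% interval 23.97% to 50.5%) and in 26 of 44 Pyr←ORBvl neurons (59.1%, 44.4% to 72.3%). Fisher's exact test gave a two-sided p of 0.0365 and an adjusted p of 0.547. Fisher's exact p was 0.0565 with 1 of the near-identical Pyr←ORBvl neurons left out (25 of 43 with a count, adjusted p = 0.632). Under the exclusion rule of the study, which drops both of these neurons, Fisher's exact p was 0.126 (adjusted p = 0.702). Thinned to 100000 counts, detection was 12 of 38 and 17 of 34 (Fisher's exact p = 0.150, adjusted p = 0.867). More genes were detected in Pyr←ORBvl neurons (median 3981 against 3241). Over all genes tested, the share of neurons with a count was higher there by a median of 4.01 points. Whether a neuron had a count of Cacna2d3 went with its number of detected genes over the 91 neurons (Spearman's rho = 0.35). The part of detected genes in the difference between the types was not tested. Of all genes tested, 7.98% had an unadjusted p under 0.05. With at least 5 counts required, Cacna2d3 was detected in 13 Pyr←LP and 17 Pyr←ORBvl neurons (Fisher's exact p = 0.372).

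**Figure D2:**
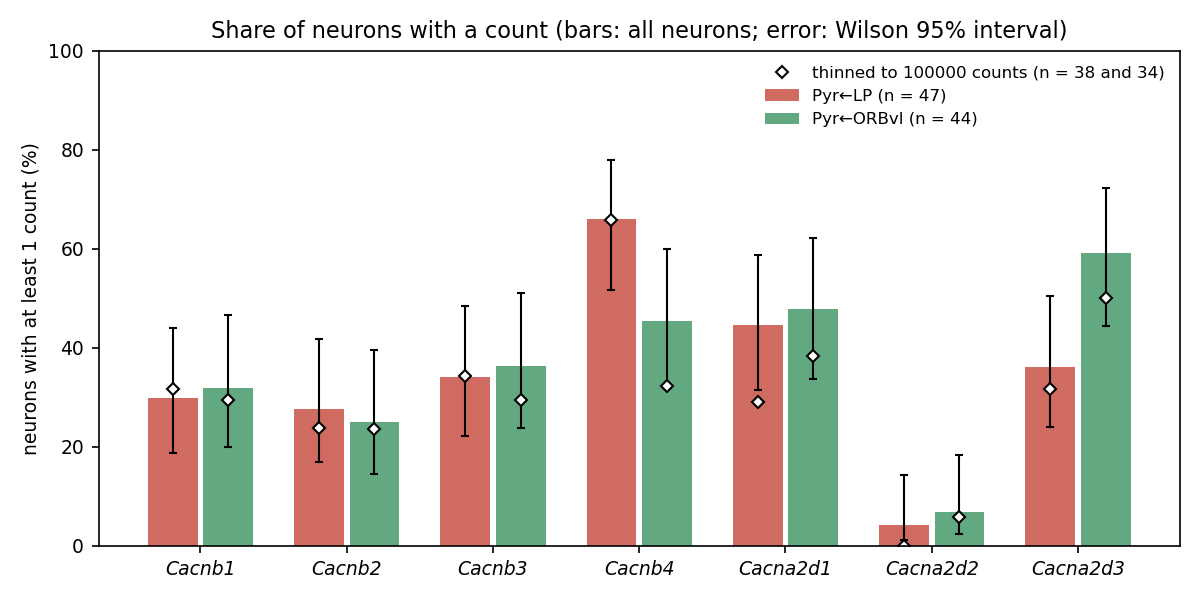
Share of neurons with at least 1 count of each member in either type (red bars for Pyr←LP, green bars for Pyr←ORBvl), with Wilson 95% intervals, and the share after thinning to 100000 counts as open diamonds (n = 38 and 34). Cacnb4 had the larger share in Pyr←LP neurons (66.0% against 45.5%) and Cacna2d3 in Pyr←ORBvl neurons (59.1% against 36.2%), and neither passed the adjusted threshold.

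No member was called between the types. In the edgeR test, with neurons as replicates and a fold above 2 with an adjusted p below 0.05 required for a call, 0 of the 6 members tested passed, where 1.57% of all 8267 genes did. DESeq2 called 0 members and 65 of all genes, and limma on log2 FPKM called 0 members and 53 or 68 of all genes, depending on the pseudocount. An unadjusted edgeR p under 0.05 was seen for 0 members and 790 of all genes. The median log2 fold change was 0.22 over the 6 members and 0.12 over all genes. The intervals were wide, and those of all 6 included a difference of 2-fold in at least 1 direction. Fisher's exact tests on detection called 0 of the 6 members and 0.266% of all genes.

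Counts summed per type within each of the 14 prefixes with both types were tested with the prefix as the replicate. Of the 5 members that could be tested, 0 were called, where 0.0438% of 6848 genes were, so few calls were made of any gene and this count says little about the members. The fitted log2 fold change on these sums was 1.53 for Cacnb1 (SE 2.27), −0.97 for Cacnb3 (SE 2.78), −2.66 for Cacnb4 (SE 1.80), 1.70 for Cacna2d1 (SE 2.29) and 0.48 for Cacna2d3 (SE 1.69), with an adjusted p of 1.00 for each. These lay farther from 0 than over neurons, except that of Cacna2d3. With the prefix as a block over neurons, it was 2.20 for Cacnb1, −1.36 for Cacnb3, −1.50 for Cacnb4, 1.20 for Cacna2d1 and 0.20 for Cacna2d3 (edgeR adjusted p between 0.577 and 0.989). Only when the filter on low counts was removed was a member called, and that was Cacna2d2 (log2 fold change 3.25, SE 0.83, edgeR adjusted p = 0.000663). This setting called 27.5% of 18674 genes, and its value for Cacna2d2 rests on the 5 neurons above.

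**Figure D3:**
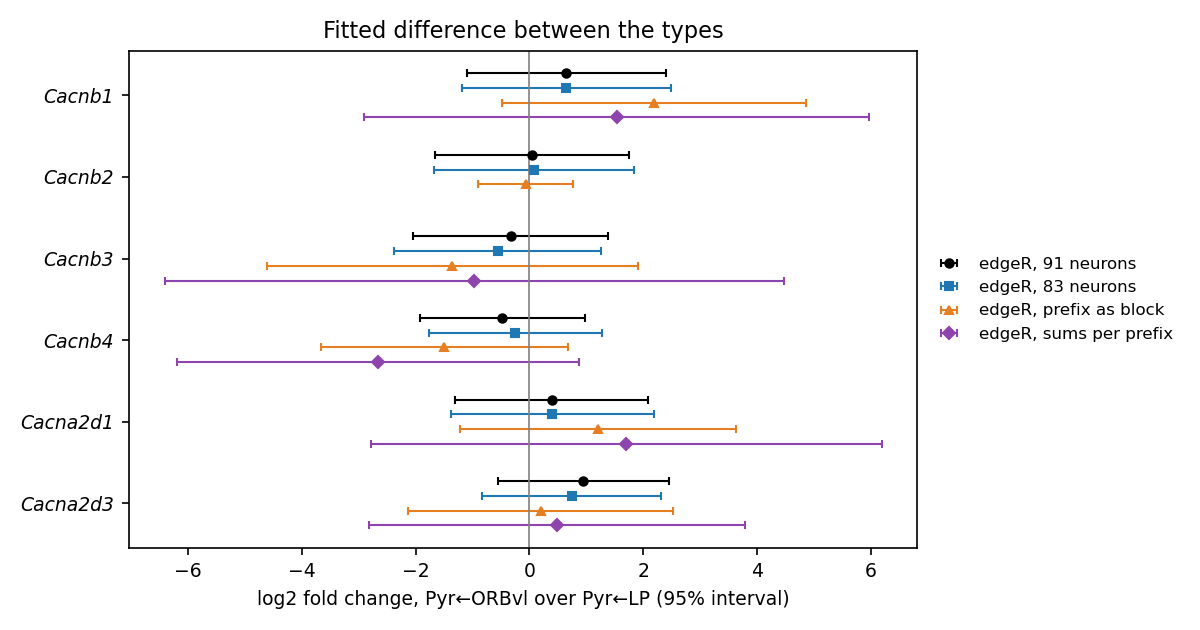
Fitted log2 fold change of Pyr←ORBvl over Pyr←LP neurons with its 95% interval for the 6 members tested, from edgeR on all 91 neurons, on the 83 neurons left when the exclusion rule of the study was applied to the deposited counts, with the prefix as a block, and on sums per prefix (Cacnb2 could not be tested there). Every interval crosses 0.

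Levels of different members were compared per length, as the mean log2(FPKM + 1) of the neurons of each prefix, over the 17 prefixes. The means, with the SD over prefixes, were 2.21 ± 1.89 for Cacna2d3, 2.01 ± 1.29 for Cacnb4, 1.71 ± 1.15 for Cacnb3 and 1.15 ± 1.06 for Cacnb1. They were 0.86 ± 0.55 for Cacna2d1, 0.39 ± 0.41 for Cacnb2 and 0.11 ± 0.22 for Cacna2d2. Neighbours in the upper part of this order did not differ beyond their spread. In two-sided exact sign-flip permutation tests over prefixes, adjusted over the 21 pairs, Cacna2d3 against Cacnb4 gave p = 0.755, Cacnb4 against Cacnb3 p = 0.400, Cacnb3 against Cacnb1 p = 0.300 and Cacnb1 against Cacna2d1 p = 0.390. Cacna2d1 lay above Cacnb2 (adjusted exact permutation p = 0.0156, higher in 15 of 17 prefixes) and Cacnb2 above Cacna2d2 (adjusted permutation p = 0.0374, and 0.0535 under the exclusion rule of the study, where the call was lost). In all, 15 of the 21 pairs differed.

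The prefixes differed widely in Cacna2d3, whose mean ranged from 0 to 5.49 and which had no count in 4 of the 17. Cacnb4 was the only member with a count in every prefix, with a range of 0.67 to 5.72. The order at the top depends on the length behind the FPKM. The length implied by count and FPKM was 3695 bases for Cacna2d3 and 16236 for Cacnb4, whereas the exons of GENCODE M21 cover 8720 and 8963 bases. With those lengths Cacnb4 came first (2.44 ± 1.47) and Cacna2d3 second (1.75 ± 1.54), and the pair still did not differ (adjusted permutation p = 0.325). Cacnb4 then lay above Cacnb3 (adjusted permutation p = 0.0331).

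**Figure D4:**
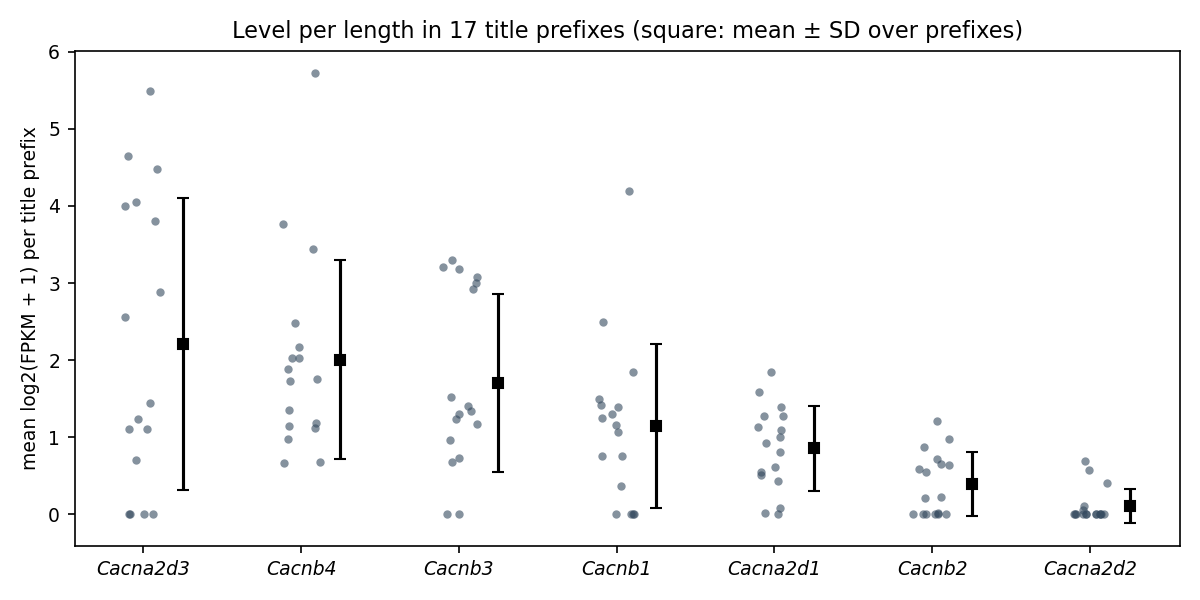
Mean log2(FPKM + 1) of each member in each of the 17 title prefixes (points), with the mean ± SD over prefixes (squares), ordered by the mean. Cacnb4 is above 0 in every prefix, and Cacna2d3 spreads from 0 to 5.49.

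The members were then combined within each neuron. At least 1 β subunit was detected in 36 of 47 Pyr←LP and 33 of 44 Pyr←ORBvl neurons, and at least 1 α2δ subunit in 30 and 32. Both kinds were found in 50 of the 91 neurons, a β subunit alone in 19, an α2δ subunit alone in 12 and neither in 10. A pore subunit of the kind that binds β was detected in 73 neurons, and 15 of these had no count of any β subunit.

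Where β subunits were detected, 1 of them usually made up most of the summed β FPKM. The leading β subunit made up a median of 90.1% of this sum in a neuron. This median includes 24 of the 69 neurons in which only 1 was detected, so that its share was fixed at the maximum. The part of transcripts present but not detected in these shares was not tested. By FPKM, Cacnb3 led in 27 neurons, Cacnb4 in 23, Cacnb1 in 15 and Cacnb2 in 4. By counts, which are not corrected for length, Cacnb4 led in 35 and Cacnb3 in 15. When a single β subunit was detected it was Cacnb4 in 14 of 24 neurons. Of the summed mean β FPKM over all neurons, Cacnb3 made up 50.7%, Cacnb4 27.95%, Cacnb1 19.1% and Cacnb2 2.28%. The leading place turned with the length, since Cacnb4 made up 57.5% and Cacnb3 20.04% of the summed mean CPM, and with GENCODE lengths the mean FPKM was 17.8 for Cacnb4 and 13.9 for Cacnb3.

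Among α2δ subunits, Cacna2d3 led by FPKM in 15 Pyr←LP and 21 Pyr←ORBvl neurons, and Cacna2d1 in 14 and 8. By counts, Cacna2d3 led in 14 and 17 and Cacna2d1 in 15 and 13, so the order turned in Pyr←LP neurons. Cacna2d3 made up 93.9% of the summed mean α2δ FPKM and 75.1% of the summed mean CPM, and the implied length above enters the first of these. Cacna2d1 and Cacna2d3 were detected together in 25 neurons, which were 59.5% of the Cacna2d1 and 58.1% of the Cacna2d3 neurons. Independent detection would put 19.8 neurons in this class. Cacnb3 and Cacnb4 shared 21 neurons (65.6% of the Cacnb3 and 41.2% of the Cacnb4 neurons), where independence gives 17.9. Correlations between members over the 91 neurons were weak, with rho between −0.03 and 0.20 for the 15 pairs of the 6 members tested.

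**Figure D5:**
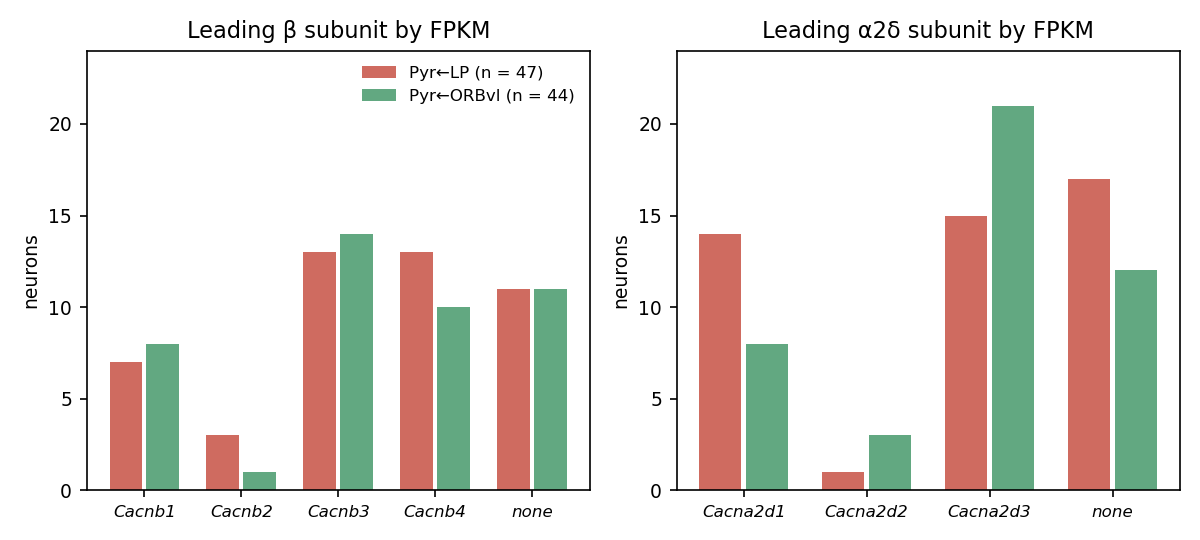
Number of neurons in which each β subunit (left) or α2δ subunit (right) had the highest FPKM of its kind, with neurons without any count of that kind as none, with red bars for Pyr←LP (n = 47) and green bars for Pyr←ORBvl (n = 44). Cacnb3 and Cacnb4 each led in 13 Pyr←LP neurons, and Cacna2d3 led in 15 Pyr←LP and 21 Pyr←ORBvl neurons.

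The genes whose levels were most like those of the members were named from Spearman's rho over the 91 neurons, as a description. For Cacnb1 they were Eif4enif1 (0.56), Ankrd13c (0.51) and Rps4x (0.49), and for Cacnb2 Pspc1 (0.44), Mrpl18 (0.39) and Gpr108 (0.39). For Cacnb3 they were Ipo4 (0.43), Pphln1 (0.41) and Scd2 (0.41), and for Cacnb4, after A430018G15Rik, Pcbp2 (0.46) and Tmem256 (0.45). For Cacna2d1 they were Pabpn1 (0.46), Arhgap5 (0.43) and Nav1 (0.39), and for Cacna2d3 Tbce (0.48), Ptcd3 (0.46) and Srrm2 (0.44). None of these was a calcium channel gene. The 99th percentile of rho over all genes tested was between 0.28 and 0.37 for the 6 members, and the neurons share prefixes and differ in detected genes.

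Of a list of 39 other genes of the same machinery (other auxiliary subunits, pore subunits, RGK proteins, presynaptic scaffolds, thrombospondins and calmodulins), 38 were in the table, 35 had a count and 19 could be tested. In the edgeR test 1 was called higher in Pyr←ORBvl neurons, where 1.06% of all genes were, and 1 higher in Pyr←LP neurons, where 0.508% were. The first was Cacna1h, the T-type pore subunit Cav3.2, with a count in 3 of 47 Pyr←LP and 15 of 44 Pyr←ORBvl neurons (log2 fold change 4.09, SE 0.99, adjusted p = 0.00787). Of its summed CPM in Pyr←LP neurons, 98.1% came from 1 neuron, and without 1 prefix the log2 fold change was 7.79. The second was Cacna1d, the L-type pore subunit Cav1.3, with a count in 9 and 6 neurons (−3.44, SE 1.00, adjusted p = 0.0457), and 68.1% of its summed CPM in Pyr←LP neurons came from 1 neuron. The call of Cacna1h was lost under 4 alternatives and kept under 24, and that of Cacna1d was lost under 14 and kept under 12. Most of these alternatives left out 1 prefix each (17 for Cacna1h and 16 for Cacna1d), and such fits share most neurons. Neither gene could be tested on sums per prefix or under the filterByExpr filter, nor Cacna1d with the prefix as a block. Where its call was lost, the log2 fold change of Cacna1d lay between −3.64 and −0.49. It was −3.45 under the exclusion rule of the study (edgeR adjusted p = 0.0518) and −2.25 with DESeq2 (adjusted p = 0.976). The median log2 fold change of the 19 was −0.28.

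Of the remaining auxiliary subunits, Cacna2d4 had a count in 0 of 91 neurons, which allows a share of neurons with a count of up to 3.30% (3 neurons, counting error only) and sets no limit on the neurons that express it. Cacng1 and Cacng7 were also at 0, and 7 of the 10 genes of this group had a count. Calm2, which encodes a calcium sensor that binds the channel's tail, and Rem2, an RGK protein that binds β subunits and inhibits the channels, were among the 3 genes of the list with the highest mean FPKM. Calm2 had a mean of 2077 over the 91 neurons, with counts in all of them, and Rem2 had a mean of 79.4 with counts in 20 Pyr←LP and 27 Pyr←ORBvl neurons. Neither was called between the types (edgeR adjusted p = 0.978 and 0.904).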

How the data were processed

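Single neurons were amplified with a Smart-seq2-based kit without molecular identifiers or strand marks. The authors aligned reads to GRCm38 with STAR 2.5.3, removed PCR duplicates, and counted uniquely aligned reads on RefSeq genes with GenomicAlignments. They deposited raw counts per gene and, separately, FPKM values, whose computation is not given in the sources used here. FPKM was 0 exactly where the count was 0. Groups follow the deposited subtype labels, and neurons were numbered in accession order.

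The quasi-likelihood test of edgeR (version 4.0.16, under R 4.3.3) was applied to the counts after TMM scaling, for every gene that reached 5 counts in 10 or more neurons, and p-values were adjusted over all of these genes by the Benjamini-Hochberg method. DESeq2 1.42.0, and limma 3.58.1 on log2(FPKM + 1) or log2(FPKM + 0.1), were alternatives. Detection was tested per gene with two-sided Fisher's exact tests, and pairs of members with exact sign-flip permutation tests over prefixes. Python 3.11.15, numpy 2.4.6, pandas 2.3.3, scipy 1.17.1 and matplotlib 3.10.9 were used for the rest. Prefixes differing only by a hyphen were merged. Fits were tested on simulated data. Wilson intervals are 95% and cover counting error only. Coordinates are RefSeq gene spans on GRCm38.

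The genes named are all members, every gene of the pathway list that was called and the 3 with the highest mean FPKM, and the 3 genes most correlated with each member. A result for 1 gene that this rule names is not reported here. Cacna2d4, Cacng1, Cacng3, Cacng7, Pou3f1, Gad1 and the other GABAergic genes named for Cacna2d2 neurons fall outside the rule and were named after their values were seen. Marker lists are pan-neuronal, excitatory, layer 5, GABAergic, astrocyte, oligodendrocyte, microglia and endothelial. The members and lists were chosen with earlier results of these data known. Neurons excluded by the study were kept, and its exclusion rule (under 500 counts, or Slc32a1, Gad1 and Gad2 summing to over 7 as log2(count + 1)) was an alternative. Applied to the deposited counts it left 83 neurons, more than the study kept, and no deposited total was under 500 counts.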

Additional observations from a re-analysis of the deposited data

How the results depend on the processing

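No member was called under any alternative except Cacna2d2 without the filter on low counts (1 member, among 5127 genes called). The count of all genes called, 130, moved to 65 with DESeq2, 331 with DESeq2 size factors (133 higher in Pyr←ORBvl and 198 in Pyr←LP neurons, against 88 and 42), 1 with filterByExpr, 63 in neurons with at least 100000 counts, 201 with detected genes as a covariate, 53 and 68 with limma at pseudocounts of 1 and 0.1, and 3 on sums per prefix, and the cause of these moves was not tested. It was 170 under the exclusion rule of the study (66 and 104). With the prefix as a replicate block it was 160, and no member was called. Leaving out each prefix in turn gave between 56 and 140 genes and 0 members. DESeq2 size factors moved the median log2 fold change of all genes from 0.12 to 0.01. Detection tests called 22 genes, and 11 after thinning, 14 without 1 of the near-identical neurons and 6 in neurons with at least 100000 counts.

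The sign of Cacnb2 (0.05) was reversed with DESeq2 (−0.093), without TMM (−0.33), with the replicate block (−0.065), with the covariate (−0.61) and with limma (−0.091 and −0.16), and that of Cacnb1 with DESeq2 (−0.23) and of Cacnb3 with limma at a pseudocount of 0.1 (0.017). Leaving out a prefix gave −1.04 to 0.58 for Cacnb2, −0.75 to 0.029 for Cacnb3, −0.11 to 0.59 for Cacna2d1, 0.06 to 1.05 for Cacnb1, −0.97 to −0.20 for Cacnb4 and 0.63 to 1.45 for Cacna2d3. Differences in detection share (Pyr←ORBvl minus Pyr←LP) changed sign for Cacnb1 at 5 counts (−2.80 points), thinned (−2.17) and in deep neurons (−1.86), for Cacnb2 at 5 counts (3.29) and in deep neurons (0.46), and for Cacnb3 at 5 counts (−0.24), thinned (−4.80), under the exclusion rule (−0.76) and in deep neurons (−4.49). Those of Cacnb4 (−33.4 to −19.4 points) and Cacna2d3 (10.98 to 24.6 points) kept their sign, with Fisher's exact adjusted p from 0.405 to 0.700 and from 0.547 to 0.946. In neurons without A430018G15Rik that of Cacnb4 was −19.1 points. Of the 40 neurons left out there, 38 held Cacnb4, so the choice of neurons depends on Cacnb4 itself and this value cannot tell the transcripts apart. The call of Cacna1h was lost in neurons with at least 100000 counts (log2 fold change 3.80, adjusted p = 0.0948), with limma (0.84 and 1.70, adjusted p = 0.138 and 0.0701) and without 1 prefix (3.30, adjusted p = 0.0892), against 4.09, and that of Pou3f1 on sums per prefix (5.44, adjusted p = 1.00). Of the 21 pairs of members, 12 differed at a pseudocount of 0.1, 13 under the exclusion rule and 14 with GENCODE lengths. Cacnb4 ranked first at a pseudocount of 0.1, with GENCODE lengths, and by the median over neurons. The comparisons with GENCODE lengths and without A430018G15Rik neurons were chosen after seeing the data.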

Other observations

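A layer 5 marker had a count in 33 of 47 Pyr←LP and 39 of 44 Pyr←ORBvl neurons, an astrocyte marker in 23 and 24, and an endothelial marker in 4 and 2. The 5 genes of the layer 5 list had edgeR log2 fold changes between −2.45 and 3.71, and 1 was called, where 1.57% of all 8267 genes were. Pou3f1, a transcription factor gene, was called higher in Pyr←ORBvl neurons (edgeR log2 fold change 3.71, SE 0.93, adjusted p = 0.0122), with a count in 7 Pyr←LP and 24 Pyr←ORBvl neurons.

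Cacng3, a γ family gene whose protein accompanies AMPA receptors, was detected in 25 of 47 Pyr←LP and 31 of 44 Pyr←ORBvl neurons, which is 61.5% of all 91 against 56.0% for Cacnb4, although in Pyr←LP neurons Cacnb4 was detected in more (31), with an edgeR log2 fold change of 0.80 (SE 0.68, adjusted p = 0.879). It was picked out after its values were seen.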
